A study of Mus musculus with 2 samples.

Results

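The T-box genes encode transcription factors that share a DNA-binding region, the T-box, and direct the patterning of limbs, vertebral column, heart, pharynx and palate in vertebrate embryos. Tbx2, Tbx3, Tbx4 and Tbx5 form a subfamily with prominent roles in limb buds, in which Tbx5 and Tbx4 act in forelimb and hindlimb outgrowth and Tbx2 and Tbx3 act mainly as repressors. Tbx15 and Tbx18 shape the limb girdles, the skull and the somites from which vertebrae form, and loss of either alters skeletal elements in the mouse. The signals of 9 of these genes, Tbx1, Tbx2, Tbx3, Tbx4, Tbx5, Tbx15, Tbx18, Tbx20 and Tbx22, are described here. Every probe set annotated with exactly 1 gene symbol equal to a listed gene was taken, which gave 19 of the 34945 probe sets with 1 symbol (45101 on the array in all).

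The study used mouse embryos carrying a Col2a1-Venus transgene, with C57Bl/6 as genetic background, in which chondrocytes, the cells of cartilage, are marked by Venus, a GFP variant. The Venus-positive fraction and the Venus-negative fraction, both isolated by fluorescence-activated cell sorting, carried the same transgene and were each hybridised to 1 Affymetrix array, so 2 arrays were compared. The sources used here do not give the age or number of the embryos, the parts of the body used or any treatment. With 1 array per fraction there is no replicate error and no test across samples, and every difference describes this pair of arrays. In such pooled RNA, fewer cells of a type and less RNA per cell cannot be told apart.

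A signal is the deposited linear MAS5 intensity of a probe set, and signals of different probe sets are not on a shared scale. The floor, the median of all non-control signals, was 22.5. A probe set counted as measured if either array reached the floor, and lower signals were raised to the floor before taking log2 ratios, always Venus-positive over Venus-negative. The Venus-positive array was dimmer, with a median log2 ratio of -0.33 over 21102 measured probe sets. Relative log2 ratios, in which this median is subtracted, are therefore given beside those on the deposited scale. Col2a1, whose reporter defined the sort, gave a signal of 8443 in Venus-positive cells against 606 in Venus-negative cells, and Sox9, the main regulator of chondrocyte identity, had 1601 in Venus-positive cells against 338 in Venus-negative cells. All 17 genes of a cartilage list had a higher Venus-positive signal by 2-fold or more, which matches the fraction's label.

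Of the 9 genes, 5 had an entry in RefSeq's table of sequences at gene starts, with 8 starts in all, and the others were Tbx2, Tbx3, Tbx5 and Tbx15. Tbx18 and Tbx4 are shown because both had bright probe sets with different ratios, about level for Tbx4 and lower in Venus-positive cells for Tbx18. Each line gives the 250 bases before the annotated start, 5′ to 3′ on the gene's strand, with matches to the searched motifs in capitals.
Tbx18, GRCm38.p6 chr9:87731261-87731510, minus strand: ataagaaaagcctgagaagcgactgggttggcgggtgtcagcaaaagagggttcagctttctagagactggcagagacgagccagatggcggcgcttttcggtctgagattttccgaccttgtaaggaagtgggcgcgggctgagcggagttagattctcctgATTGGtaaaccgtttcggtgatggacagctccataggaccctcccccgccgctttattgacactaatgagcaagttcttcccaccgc
Tbx4, GRCm38.p6 chr11:85896515-85896764, plus strand: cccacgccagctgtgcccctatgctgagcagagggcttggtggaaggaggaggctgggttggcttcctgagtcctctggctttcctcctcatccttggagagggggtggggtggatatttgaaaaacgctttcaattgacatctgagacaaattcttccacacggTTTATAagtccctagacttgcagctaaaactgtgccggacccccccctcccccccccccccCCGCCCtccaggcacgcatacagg
The motifs were searched on both strands. They were CCAAT, the TATA motif TATAAA, the GC box GGGCGG, the T-box core AGGTGT and the longer T-box element AGGTGTGA, which contains the core. In the Tbx18 sequence the capitals mark a CCAAT motif on the opposite strand (33.8% of 32851 RefSeq windows of the same length held CCAAT). In the Tbx4 sequence they mark a TATA motif and a GC box, both on the opposite strand, against 12.4% and 32.7% of all windows. Neither window held the letters of the T-box core, which 11.8% of all windows held, and among the 8 T-box windows 1, of Tbx1, held it. The longer element was in none of the 8 and in 1.12% of all windows. The Tbx18 window had 15 CpG dinucleotides and the Tbx4 window 6, against a median of 6 over all windows.

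Tbx2 and Tbx3 were lower in Venus-positive cells, and Tbx18 and the brighter Tbx5 probe set were lower by less than 2-fold. The dimmer Tbx5 probe set and Tbx4 were nearly level, and Tbx15 was slightly higher on the deposited scale. Of the 19 T-box probe sets, 11 were at or above the floor on both arrays, 2 on the Venus-negative array only and 6 on neither. The 6 include the single probe set of Tbx22, so 8 of the 9 genes were measured. On both scales, Venus-positive cells had a signal lower by 2-fold or more for 3 of the 13 measured probe sets and higher by 2-fold for none. On the deposited scale 10.2% of all measured probe sets were lower by this size and 2.44% were higher, and on the relative one 5.36% and 4.58%. Both measured Tbx3 probe sets are among the lower ones. By gene, 2 of 8 were lower by 2-fold or more on both scales, against 11.6% of all measured genes (6.48% on the relative scale). The median log2 ratio of the 13 was -0.68, or -0.35 relative to all probe sets. The 2 that passed only through the Venus-negative array had to be lower, so this median supports no direction.

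**Figure D1:**
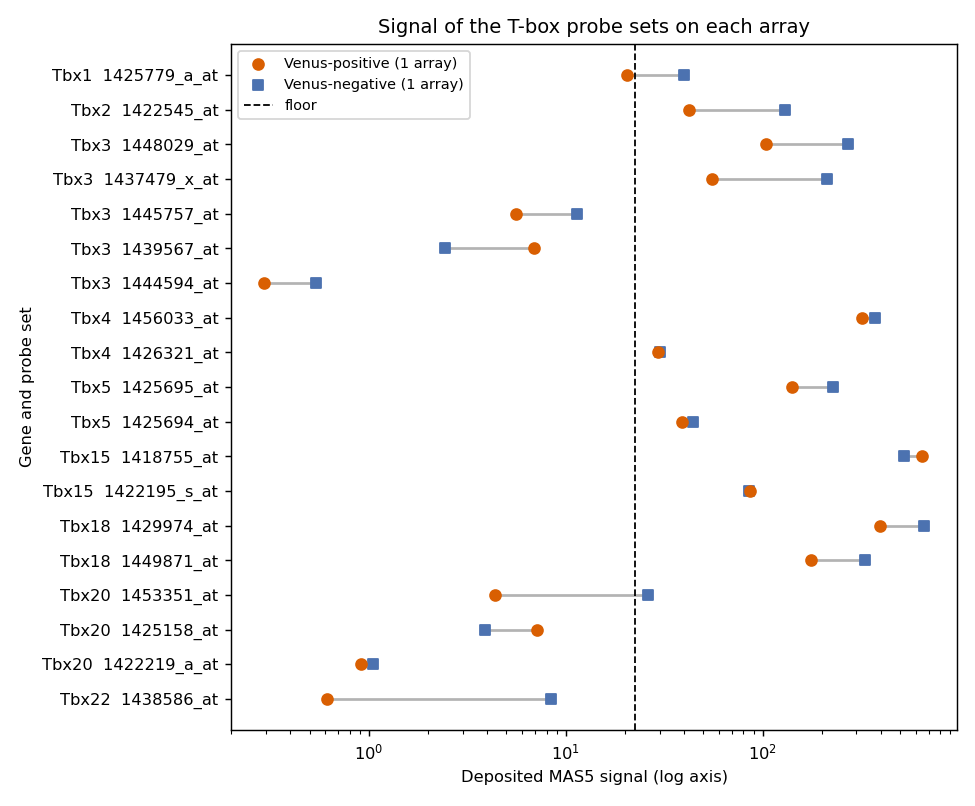
Deposited MAS5 signal (log axis) of each of the 19 T-box probe sets on the Venus-positive array (circles) and the Venus-negative array (squares), 1 array each, with the floor of 22.5 as a dashed line. The longest gaps above the floor are those of Tbx2 and of 2 Tbx3 probe sets, and 6 probe sets lie below the floor on both arrays.

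Most marker lists of other cell types had more genes lower than higher by 2-fold in Venus-positive cells. Of all 11789 measured genes, each given by its brightest probe set, 11.6% were lower by 2-fold or more in Venus-positive cells and 2.79% higher on the deposited scale, against 6.48% lower and 590 genes higher relative to the median probe set. Of 13 fibroblast and perichondrium genes 9 passed 2-fold as lower (8 relative to the median) and none as higher, with a median log2 ratio of -1.41. Their summed signals, to which the brightest probe sets contribute most, were 17706 in Venus-positive cells against 32899 in Venus-negative cells and are no fold change of the list. The pericyte and smooth muscle list had 7 of 10 lower and the endothelial list 8 of 8, on both scales. The epithelial list had 7 of 9 lower (6 relative to the median), the leukocyte list 8 of 8 (7), the skeletal muscle list 10 of 10 (9) and the neuronal list 4 of 7 (4). The tendon list had 4 of 8 lower (3 relative to the median) and 2 higher. In the lung and mesothelium list 1 of 3 was lower, and none was relative to the median. In the heart list 8 of 10 measured genes passed 2-fold as lower (6 relative to the median), with a median log2 ratio of -1.55 and summed signals of 216 in Venus-positive cells against 1238 in Venus-negative cells. Of the 19 listed heart genes 9 were under the floor on both arrays, among them the heart factors Nkx2-5 and Gata4 and the atrial gene Nppa. The counts and sums thus rest on the remaining genes, and the cell type behind their signals was not tested. Gata6 had 35.9 in Venus-positive cells against 84.4 in Venus-negative cells, and Isl1, also a limb bud gene, had 66.2 in Venus-positive cells against 151 in Venus-negative cells. In each list of this paragraph some genes passed the floor only through the Venus-negative array and had to come out lower. Such genes give no direction, so the counts of lower genes partly follow from the floor. The part of these cell types in the T-box values was not tested.

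Tbx2, a repressor expressed at limb margins and in the heart and eye, has 1 probe set. Its signal was 42.3 in Venus-positive cells against 129 in Venus-negative cells. Both lay above the floor, and the Venus-positive signal was 3.06-fold lower (log2 ratio -1.61, relative -1.29). Of all measured probe sets, 3.19% had a lower ratio.

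Tbx3, the closest relative of Tbx2, is required for the posterior limb and for mammary gland formation. Of its 5 probe sets 2 were measured. Probe set 1448029_at gave a signal of 105 in Venus-positive cells against 270 in Venus-negative cells, 2.58-fold lower (log2 ratio -1.37, relative -1.04). Probe set 1437479_x_at had 55.4 in Venus-positive cells against 213 in Venus-negative cells, 3.85-fold lower (log2 ratio -1.94, relative -1.62). The suffix x marks probes that can match other transcripts, but both probe sets had a lower signal in Venus-positive cells and lay above the floor on both arrays. Of all measured probe sets 4.99% and 1.87% had lower ratios than these. The remaining probe sets of Tbx3 had signals between 0.294 and 11.4, under the floor, and give no direction.

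Tbx4 and Tbx5, the hindlimb and forelimb members, differed by less than 2-fold between the fractions. Tbx4 probe set 1456033_at gave a signal of 319 in Venus-positive cells against 372 in Venus-negative cells, with a log2 ratio of -0.22. Its second probe set, near the floor, had 29.5 in Venus-positive cells against 30.2 in Venus-negative cells, with a log2 ratio of -0.04. Both Tbx4 ratios were below 0 on the deposited scale and above 0 relative to the median probe set (0.11 and 0.29), after quantile normalization and after scaling to hybridisation controls, so Tbx4 had no settled direction. Tbx5 probe set 1425695_at had 142 in Venus-positive cells against 227 in Venus-negative cells, 1.60-fold lower (log2 ratio -0.68, relative -0.35). Tbx5 probe set 1425694_at had 39.1 in Venus-positive cells against 44.4 in Venus-negative cells, with a log2 ratio of -0.18 that turned to 0.14 relative to the median probe set. The brighter Tbx5 probe set stayed below 0 in all 7 alternatives that gave it a value, between -0.68 and -0.34, and the dimmer one did not.

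Tbx15, which acts in the mesenchyme of the limb girdles and skull, had no lower signal in Venus-positive cells. Probe set 1418755_at had 643 in Venus-positive cells against 524 in Venus-negative cells, 1.23-fold higher (log2 ratio 0.29, relative 0.62). Probe set 1422195_s_at had 86.5 in Venus-positive cells against 85.0 in Venus-negative cells, a log2 ratio of 0.03 (relative 0.35). Both were above 0 under each alternative that gave a value, and both stayed within 2-fold. Of all measured probe sets 89.2% and 78.9% had lower ratios than these.

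Tbx18, which maintains the anterior compartment of somites and is also active in the epicardium, ureter and limb mesenchyme, had bright signals in both fractions. Probe set 1429974_at had 395 in Venus-positive cells against 664 in Venus-negative cells, 1.68-fold lower (log2 ratio -0.75, relative -0.42). Probe set 1449871_at had 176 in Venus-positive cells against 330 in Venus-negative cells, 1.88-fold lower (log2 ratio -0.91, relative -0.58). The log2 ratios of the pair differed by less than 0.34, the pooled standard deviation between probe sets of 1 gene over 5445 genes, and stayed below 0 and within 2-fold under all 7 alternatives.

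Tbx1, a regulator of the pharyngeal arches, had 20.5 in Venus-positive cells, under the floor, and 39.8 in Venus-negative cells. On the deposited scale this is at least 1.77-fold lower (log2 ratio -0.82, relative -0.50). Tbx20, a heart factor, had 4.36 in Venus-positive cells against 26.2 in Venus-negative cells on 1453351_at, at least 1.16-fold lower, and its other probe sets were under the floor on both arrays (7.14 and 0.913 in Venus-positive cells, 3.87 and 1.06 in Venus-negative cells). The log2 ratio of 1453351_at was -0.22 and turned to 0.11 relative to the median probe set, and with a floor at the 25th percentile it was -2.33, past 2-fold, so Tbx20 had no settled value. Tbx22, which acts in palate formation, had 0.611 in Venus-positive cells against 8.40 in Venus-negative cells, both under the floor, so no fold is given. These 3 genes thus had signals near or under the floor in both fractions.

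**Figure D2:**
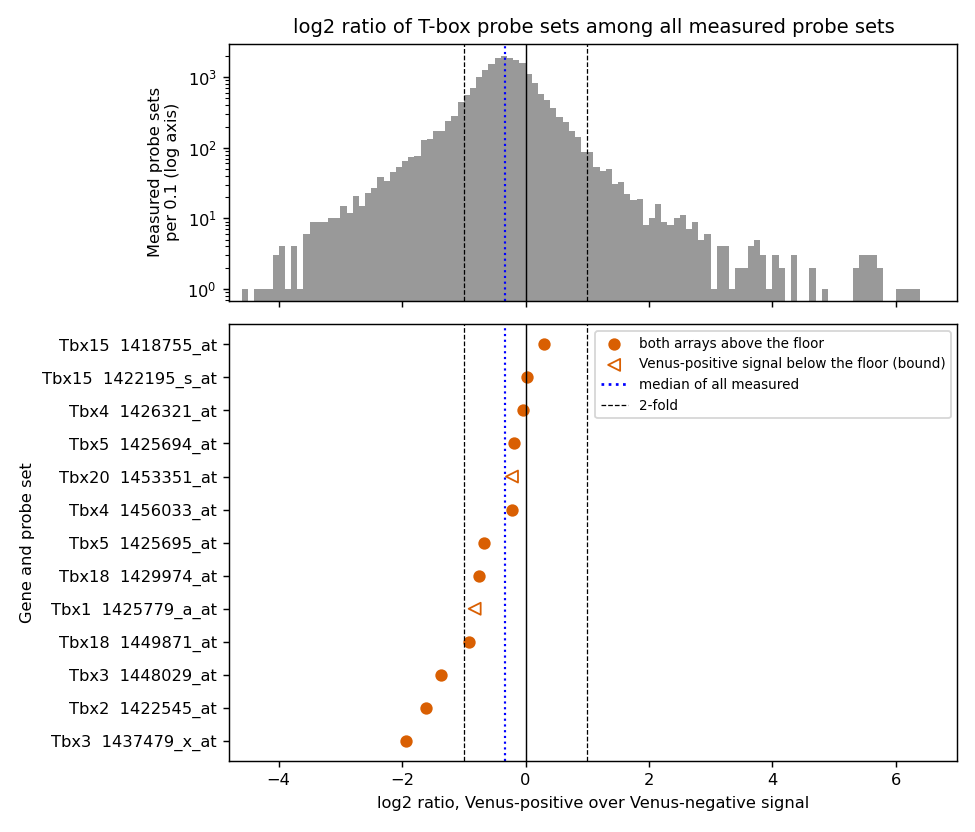
Top, number of measured probe sets per 0.1 of log2 ratio (Venus-positive over Venus-negative, count on a log axis) for all 21102; bottom, the 13 measured T-box probe sets on the same axis, with open triangles where the Venus-positive signal was under the floor. Tbx2 and both Tbx3 probe sets lie left of the 2-fold line at -1, and both Tbx15 probe sets lie right of 0.

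Differences between members cancel a uniform brightness gap between the arrays. Tbx2 and Tbx4 are adjacent protein-coding genes on chromosome 11 in the RefSeq annotation, and Tbx3 and Tbx5 are adjacent on chromosome 5. Taking the brightest probe set of each gene, the Venus-positive over Venus-negative ratio of Tbx2 was 2.63-fold lower than that of Tbx4 (log2 difference -1.39). It was lower in 7 of 8 alternatives. The exception was a floor at the 75th percentile, where both ratios were close to 0 and differed by 0.04, because the floor lay above the Venus-positive Tbx2 signal. The ratio of Tbx3 was 1.62-fold lower than that of Tbx5 (log2 difference -0.69), with differences from -1.23 to -0.57 over all 8 alternatives. Tbx15 and Tbx18, close relatives on different chromosomes, differed as well, with a ratio 2.06-fold higher for Tbx15 than for Tbx18 (log2 difference 1.04, between 0.99 and 1.04 in all 8 alternatives).

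**Figure D3:**
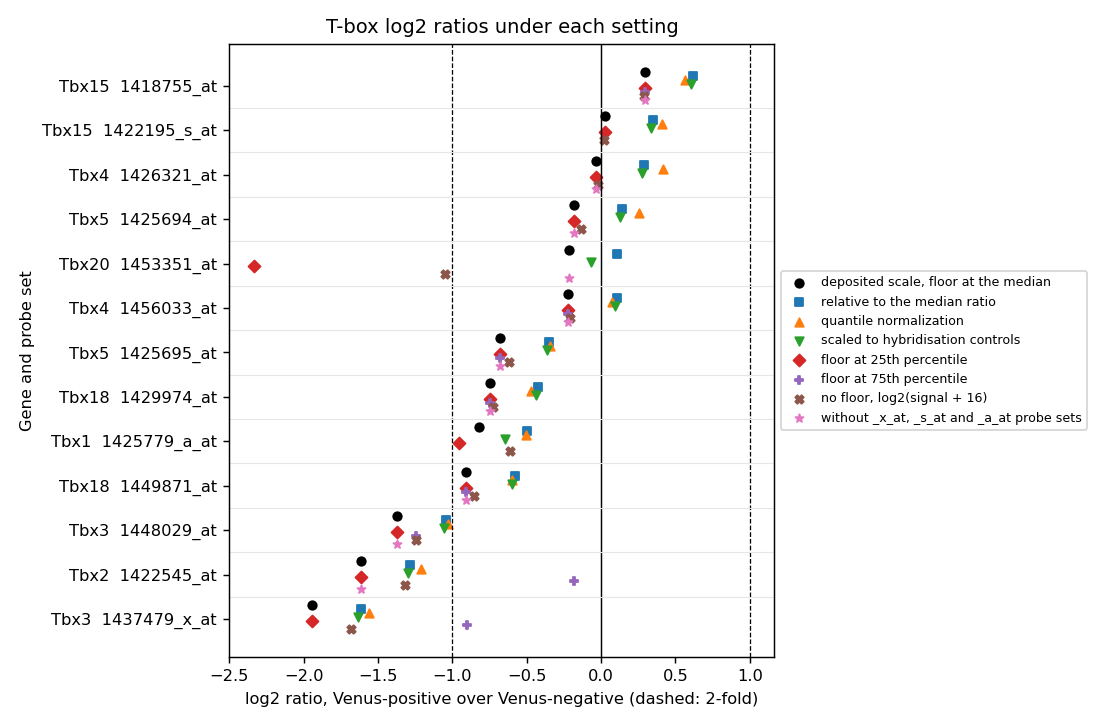
log2 ratio (Venus-positive over Venus-negative) for each of the 13 measured T-box probe sets under the deposited scale and 7 alternatives, with dashed lines at 2-fold. Tbx3 1448029_at stays left of -1 throughout, Tbx2 moves to -0.18 with a floor at the 75th percentile, and both Tbx4 probe sets change sides of 0.

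Of 9 other T-box genes listed, 6 had a probe set with 1 symbol, and most of these were dim. Tbr1, Eomes, Tbx6, Tbx19 and Tbx21 were under the floor on both arrays, with brightest signals between 0.602 and 20.1 in Venus-positive cells and between 1.45 and 16.1 in Venus-negative cells. Mga, a large T-box protein that pairs with Max, was measured at 262 in Venus-positive cells against 306 in Venus-negative cells (log2 ratio -0.23, relative 0.10). Its measured probe sets ranged from -0.23 to 0.55, so Mga had no settled direction.

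Genes that act with T-box factors were described by the brightest probe set of each gene, and their counts stand against the same shares of all measured genes (11.6% lower and 2.79% higher, or 6.48% lower and 590 of 11789 genes higher relative to the median probe set). In these lists too, a gene that passed the floor through 1 array only could come out in 1 direction only. Such genes give no direction, and the counts partly follow from the floor. Among the genes past 2-fold on either scale these were Hoxd12, Tcf21 and Wnt2 (lower) and Alx1 (higher). In the list for limb bud field and outgrowth, 6 of 12 measured genes passed 2-fold as lower in Venus-positive cells and none as higher. Relative to the median 4 passed as lower. The homeobox gene Prrx2 had 93.1 in Venus-positive cells against 358 in Venus-negative cells, and Sall1, a zinc finger gene, had 47.9 in Venus-positive cells against 184 in Venus-negative cells. Meis1, a homeobox gene of the proximal limb, had 74.5 in Venus-positive cells against 235 in Venus-negative cells. The others were Prrx1 (784 Venus-positive, 2113 Venus-negative), Meis2 (206 Venus-positive, 490 Venus-negative) and Isl1 (66.2 Venus-positive, 151 Venus-negative). Another probe set each of Meis1 (log2 ratio -0.89), Prrx1 (-0.88) and Isl1 (-0.85) stayed within 2-fold. Pitx1, which acts with Tbx4 in the hindlimb, had 159 in Venus-positive cells against 165 in Venus-negative cells, with a log2 ratio of -0.05, and its second probe set gave -0.50. Fgf10, the limb growth factor gene activated by Tbx5 and Tbx4, was at 8.88, under the floor, in Venus-positive cells against 31.0 in Venus-negative cells, at least 1.38-fold lower.

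In the limb patterning list 5 of 17 passed 2-fold as lower and 1 as higher, against 2 and 2 relative to the median probe set, where Bmp2 (relative log2 ratio 1.16) joined the higher genes. Gli1 lay just inside 2-fold on that scale. Hoxd13, a homeobox gene of the digits, had 391 in Venus-positive cells against 1545 in Venus-negative cells, 3.95-fold lower. Lmx1b, which specifies the dorsal limb, had 30.1 in Venus-positive cells against 115 in Venus-negative cells, 3.82-fold lower. Hand2, a posterior limb gene, had 262 in Venus-positive cells against 607 in Venus-negative cells, 2.32-fold lower, and the other lower genes were Hoxd10 (240 Venus-positive, 484 Venus-negative) and Hoxd12 (16.1 Venus-positive, under the floor, 46.0 Venus-negative). Ptch1, the hedgehog receptor gene, was 2.17-fold higher (3309 Venus-positive, 1528 Venus-negative), although its lowest probe set gave a log2 ratio of 0.25.

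In the list for somites and the vertebral axis 2 of 11 passed 2-fold as higher and 2 as lower, whichever scale was used. The forkhead genes Foxc2 (304 Venus-positive, 54.6 Venus-negative) and Foxc1 (1284 Venus-positive, 312 Venus-negative) were higher, and the somite homeobox genes Meox2 (185 Venus-positive, 965 Venus-negative) and Meox1 (29.6 Venus-positive, 114 Venus-negative) were lower. In the scapula and skull list 4 of 10 were lower and none higher, and relative to the median 1 was higher as well. The lower genes were Msx1 (146 Venus-positive, 720 Venus-negative), Emx2, a gene needed for the scapula (25.9 Venus-positive, 125 Venus-negative), Twist1 (266 Venus-positive, 883 Venus-negative) and Prrx1, and Alx1 was the higher gene (39.3 Venus-positive, 17.9 Venus-negative, the second under the floor). The pharyngeal and palate list had 3 of 10 lower and none higher on both scales. These were Osr1 (82.9 Venus-positive, 466 Venus-negative), Eya1 (35.7 Venus-positive, 109 Venus-negative) and Tcf21 (1.21 Venus-positive, under the floor, 59.8 Venus-negative). A second Eya1 probe set gave a log2 ratio of -0.50. Osr1 and Tcf21 are also genes of the fibroblast and perichondrium marker list.

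By the brightest probe set, 1 of 14 cofactors and corepressors passed 2-fold, as lower and on both scales, namely the Groucho-family gene Tle5 (89.1 Venus-positive, 241 Venus-negative). Its only probe set is of a kind that can match several transcripts of a gene. Leaving out such probe sets removes Tle5 from the list, so that alternative could not retest it. No other gene of the list passed 2-fold there by its brightest probe set. One of 3 probe sets of Pdlim7, not its brightest, was also past 2-fold lower (log2 ratio -1.06). The next largest log2 ratios of brightest probe sets were those of Tle2 (-0.68) and the deacetylase gene Hdac2 (-0.68), both within 2-fold. Of 8 measured genes reported as T-box targets 1 passed 2-fold as higher and 2 as lower, against 2 and 1 relative to the median probe set. Cdkn1a, a cell cycle inhibitor gene, had 339 in Venus-positive cells against 135 in Venus-negative cells, 2.51-fold higher. Cdh1, the E-cadherin gene, was 8.51-fold lower (27.9 Venus-positive, 238 Venus-negative), and it is also a gene of the epithelial marker list. Wnt2 was at least 2.16-fold lower (1.36 Venus-positive, under the floor, 48.6 Venus-negative).

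**Figure D4:**
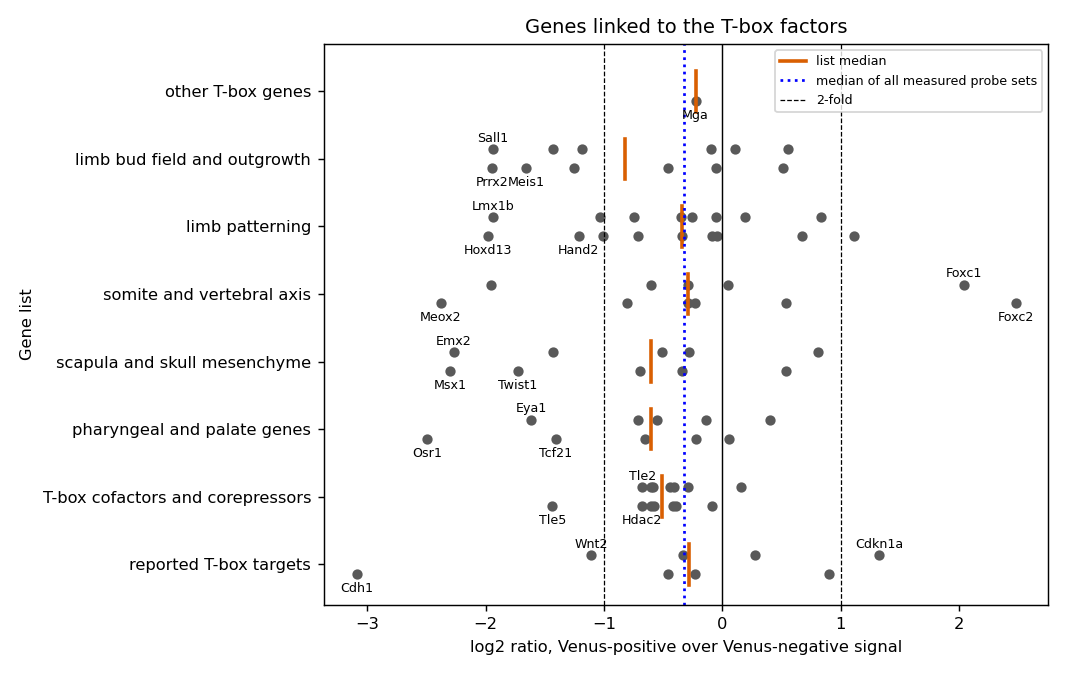
log2 ratio (Venus-positive over Venus-negative) for each measured gene (points) of 8 lists linked to T-box factors, with list medians as vertical bars, 2-fold as dashed lines and the median of all measured probe sets (-0.33) dotted. Limb bud genes have 6 of 12 points left of -1, and Foxc1 and Foxc2 are the points furthest to the right.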

How the data were processed

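Total RNA of 1 Venus-positive and 1 Venus-negative sample was labelled from 100 ng and hybridised to 1 array each, per the labels' protocols. Groups follow the labelled cell type. The authors deposited 1 linear intensity per probe set, made with MAS5 according to the submitters' processing notes. Its version, its scaling target and any detection calls were not given in the sources used. Trimmed means (2% at each end) were 109 on the Venus-positive array and 133 on the Venus-negative array, so the arrays were not at a shared mean.

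Genes came from the platform annotation, and only probe sets with 1 symbol were used (932 had several, 9160 none, and 64 were controls). Log2 ratios were computed in Python 3.11.15 with pandas 2.3.3. Alternatives were 3 other scalings, 2 other floors, log2(signal + 16) without a floor, leaving out probe sets ending in _x_at, _s_at or _a_at, and averaging a gene's probe sets. The code for the fold calls was checked on simulated data, with large known changes placed in probe sets far above the floor. This check does not cover calls near the floor or near 2-fold. Precision is limited by having 1 array per group.

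All probe sets of the 9 genes are named, as are the 6 other T-box genes that had a probe set with 1 symbol. From each further list the 3 measured genes with the largest absolute log2 ratio could be named. Other list genes (Prrx1, Meis2, Isl1, Pitx1, Fgf10, Hoxd10, Hoxd12, Ptch1, Bmp2, Gli1, Meox1, Alx1, Pdlim7, Nkx2-5, Gata4, Gata6 and Nppa) and the neighbouring genes were chosen after their values were seen. The members and lists were chosen with earlier results of these data known.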

Additional observations from a re-analysis of the deposited data

How the results depend on the processing

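No T-box probe set past 2-fold changed direction under an alternative. Below 2-fold, both Tbx4 probe sets, Tbx5 1425694_at and Tbx20 1453351_at turned from below to above 0 relative to the median ratio. None of the 13 probe sets was 2-fold higher under any of the 7 alternatives that give probe set values. The number at least 2-fold lower was 3 of 13 on the deposited scale. It was also 3 relative to the median, after quantile normalization and scaled to hybridisation controls. With log2(signal + 16) and no floor it was 4, as Tbx20 1453351_at came to -1.05. Leaving out probe sets ending in _x_at, _s_at or _a_at gave 2, because Tbx3 1437479_x_at drops out. With a floor at the 25th percentile (5.19) it was 5 of 17 measured, where Tbx20 1453351_at and Tbx3 1445757_at (-1.02) were also past 2-fold. With a floor at the 75th percentile (114) it was 1 of 8 measured, Tbx3 1448029_at. That floor raises the Venus-positive signals of Tbx2 and Tbx3 1437479_x_at and gave them -0.18 and -0.90. After quantile normalization Tbx20 was not measured. Over all measured probe sets the numbers at least 2-fold higher and lower, 514 and 2152 on the deposited scale, were 967 and 1131 relative to the median, 986 and 1119 after quantile normalization, 901 and 1233 scaled to 9 hybridisation controls, 1195 and 4527 with the low floor and 264 and 692 with the high floor. Each floor measures a different number of probe sets, so the counts at the low and high floors are not shares. They cannot be set against the T-box counts. Of 128 recomputed counts of the 8 linked lists 25 moved by over 1.5 times. No paired analysis was possible because each group has 1 array and no value comes from a test. Signals near the floor, those of Tbx1, Tbx20 and Tbx22, limit what the arrays show.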

Other observations

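The genes next to the T-box genes in the RefSeq annotation (nearest protein-coding gene on each side, brightest probe set) gave the following values. On chromosome 11 Bcas3, beside Tbx2, had signals of 34.5 in Venus-positive cells against 30.7 in Venus-negative cells (log2 ratio 0.17), and Brip1, a DNA helicase gene beside Tbx4, had 17.2 in Venus-positive cells, under the floor, against 42.8 in Venus-negative cells. On chromosome 5 Med13l, a Mediator subunit gene beside Tbx3, had 901 in Venus-positive cells against 808 in Venus-negative cells (log2 ratio 0.16), and Rbm19 beside Tbx5 had 67.4 in Venus-positive cells against 68.6 in Venus-negative cells (log2 ratio -0.03). The outer neighbours on the Tbx2 and Tbx3 sides were thus within 2-fold between the fractions, with ratios above 0. Both Bcas3 signals were near the floor. Beside Tbx1, Gnb1l had 28.4 in Venus-positive cells against 49.0 in Venus-negative cells, a log2 ratio of -0.79, and Gp1bb, a platelet glycoprotein gene, had 76.8 in Venus-positive cells against 23.2 in Venus-negative cells, a log2 ratio of 1.73. Wars2 beside Tbx15 (log2 ratio 0.09), Cep162 and Nt5e beside Tbx18 (0.26 and -0.45) and Herpud2 beside Tbx20 (-0.51) were within 2-fold, and the second neighbours of Tbx15, Tbx20 and Tbx22 were not measured. Beside Tbx22, which was under the floor, Itm2a, a membrane protein gene, had 11158 in Venus-positive cells against 9016 in Venus-negative cells (log2 ratio 0.31).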
